A study of Rattus norvegicus with 6 samples.

Results

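A set of 6 genes of glucose uptake, glycolysis and lactate metabolism were followed in cultured rat neural cells. They were taken by rat Ensembl identifier from a count table of 26405 genes: the glucose transporter Slc2a1 (ENSRNOG00000007284), hexokinase Hk2 (ENSRNOG00000006116), glyceraldehyde-3-phosphate dehydrogenase Gapdh (ENSRNOG00000018630), pyruvate kinase Pkm (ENSRNOG00000011329) and the lactate dehydrogenase subunits Ldha (ENSRNOG00000013009) and Ldhb (ENSRNOG00000013000). The selection rule names the 6 genes without using their counts, but it was written with earlier results of these data known. All 6 passed the low-count filter. The libraries came from cultures of astrocytes, neurons and oligodendrocyte precursor cells (OPCs), with 2 libraries of each, all prepared from 250 ng of total RNA. Astrocytes are glia that support neurons, and OPCs are the glia from which myelin-forming oligodendrocytes arise. Each kind of cell was bought from Life Technologies as its own product, and the sources used here do not give strain, age or pooling of the source animals. Astrocytes and OPCs were passaged 1 time at 8 days and then grown for 6 days, whereas neurons were grown for 7 days without passage (passage number 0). Cell type, product and, for neurons, passage and time in culture cannot be told apart in this design. No treatment or genotype is named. The labels do not say that the replicates were separate cultures, so the p-values measure the spread between these libraries, which may be technical.

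Cells take up glucose through facilitative transporters, of which Slc2a1, the protein GLUT1, is the widely expressed form in the brain's glia and blood vessels. Hexokinase traps the sugar as glucose 6-phosphate, Gapdh catalyses a middle step of glycolysis, and pyruvate kinase makes pyruvate in the last step. Lactate dehydrogenase is a tetramer that interconverts pyruvate and lactate. Tetramers rich in the Ldha subunit are usually associated with lactate production, and those rich in Ldhb with lactate use. In the astrocyte to neuron lactate shuttle, a long-debated model, astrocytes release lactate that neurons take up as fuel.

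Library totals ran from 22265917 counts in OPC replicate 1 to 102861667 in astrocyte replicate 1. Levels are given as CPM, counts scaled to library size with TMM factors, which ranged from 0.794 to 1.21. They are not divided by transcript length, so the levels of different genes are not compared. The 6 genes together took 0.236% and 0.213% of all counts in the astrocyte libraries, 0.195% and 0.101% in the neuron libraries, and 0.148% and 0.202% in the OPC libraries. The astrocyte shares were above those of the other 4 libraries. Lists of cell type markers were not matched to the identifiers, so the labelled cell types were not checked against markers here. In bulk RNA, fewer cells of a type and less RNA per cell cannot be told apart.

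Slc2a1 was the member with the widest differences: its level in astrocytes was about 7 times that in neurons and in OPCs. Slc2a1 stood at 165 and 107 CPM in the astrocyte replicates, 21.3 and 15.4 CPM in the neuron replicates, and 13.3 and 25.7 CPM in the OPC replicates. Both astrocyte libraries lay far above the other 4, and the neuron and OPC libraries overlapped. Neurons were 7.43-fold below astrocytes, at a log2 difference of -2.89 ± 0.45 (SE; 95% interval -3.96 to -1.83; edgeR adjusted p = 0.0037). OPCs were 6.99-fold below astrocytes, at a log2 difference of -2.80 ± 0.45 (SE; 95% interval -3.87 to -1.74; edgeR adjusted p = 0.00501). These comparisons share the astrocyte libraries. Both differences passed the threshold under all 15 alternatives that left Gapdh out of the scaling, with adjusted p between 1.2e-07 and 0.0179 against neurons and between 2.73e-07 and 0.0361 against OPCs. Differences this wide were not rare in the table, since 17.9% of genes differed more between neurons and astrocytes and 17.6% more between OPCs and astrocytes. Between neurons and OPCs the log2 fold change of Slc2a1 was -0.09 ± 0.42 (SE; edgeR adjusted p = 0.915), with an interval of -1.08 to 0.91. The data leave room for a difference of up to about 2-fold in either direction.

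**Figure D1:**
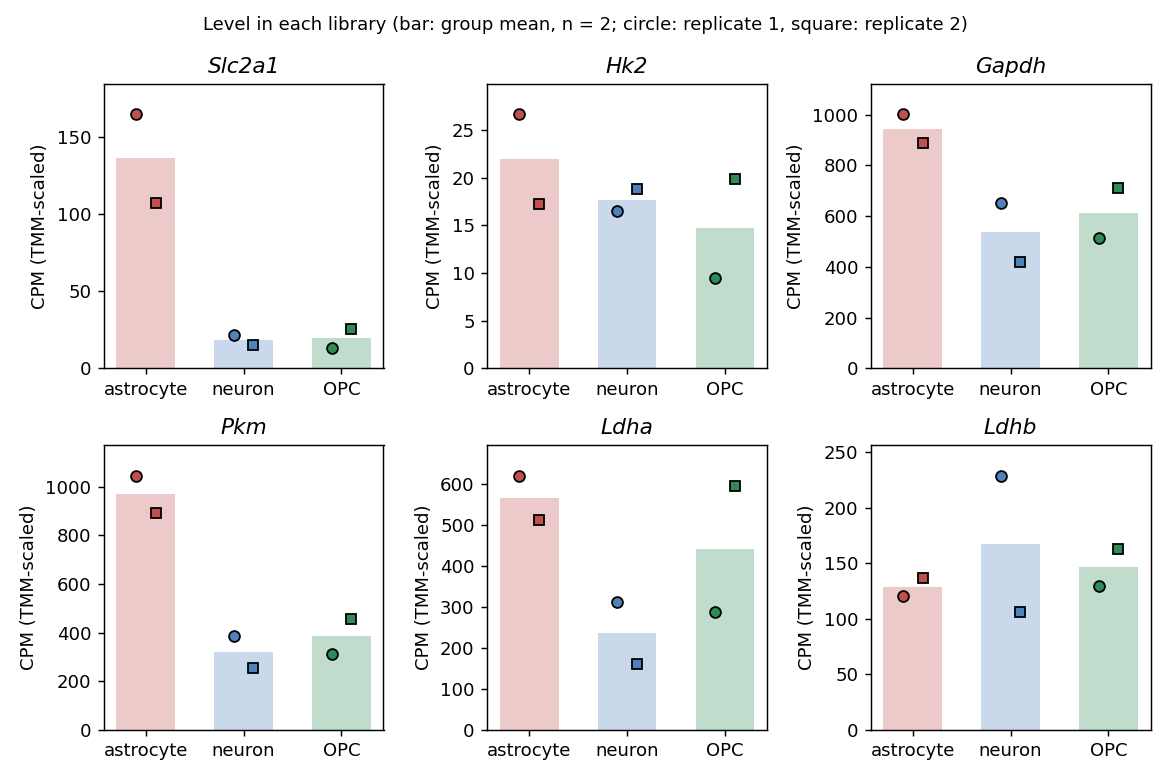
CPM (TMM-scaled) of each gene on a linear axis from 0, by cell type; bars are means of 2 libraries, circles replicate 1 and squares replicate 2. Both astrocyte points of Slc2a1, Gapdh and Pkm stand above all others, while the Hk2 and Ldhb points of the 3 cell types overlap.

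The stretch around the Slc2a1 transcription start is shown because this gene carried the widest difference. It is a RefSeq sequence of build GRCr8, chr5:138002272-138002571 on the plus strand, from 250 bases before the annotated start to 50 bases after it. Capitals mark the letters ACGTG on either strand. They are a form of the core recognised by the hypoxia-inducible factor HIF, a known activator of many glycolytic genes. Another form of that core, GCGTG, was not searched for.
Slc2a1: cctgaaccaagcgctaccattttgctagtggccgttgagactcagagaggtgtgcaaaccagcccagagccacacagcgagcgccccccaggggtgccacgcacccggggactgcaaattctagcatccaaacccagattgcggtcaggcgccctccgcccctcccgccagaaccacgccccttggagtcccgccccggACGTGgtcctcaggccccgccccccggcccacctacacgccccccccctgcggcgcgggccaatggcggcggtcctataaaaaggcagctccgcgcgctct
It held ACGTG in 1 place, its first letter at position -51 counted from the start, and the GC box GGGCGG, the core bound by Sp1, in 3 places on the opposite strand. Of 33469 rat promoters of the same 300-base length, 19.25% held ACGTG and 33.06% held GGGCGG on either strand. The Slc2a1 window was 68.3% G and C, against a median of 51.67% over those promoters. A match of letters is a description and no evidence of binding in these cells.

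For Hk2, the hexokinase that traps glucose inside the cell, no difference between the cell types passed the test. Hk2 stood at 26.7 and 17.2 CPM in astrocytes, 16.5 and 18.8 CPM in neurons, and 9.50 and 19.9 CPM in OPCs. The libraries of the 3 cell types overlapped, and the lowest and the highest OPC and astrocyte values spanned those of neurons. No comparison of Hk2 passed the edgeR test, with adjusted p of 0.62 for neurons against astrocytes, 0.41 for OPCs against astrocytes and 0.745 for neurons against OPCs. The log2 fold change between neurons and astrocytes was -0.32 ± 0.44 (SE), with an interval of -1.36 to 0.72. It was 0.14 without astrocyte replicate 1. It was 0.15 with total-count scaling and 0.60 with libraries scaled to Gapdh, but these scalings moved the median of all genes as well. Relative to that median Hk2 stood at -0.26 in the main fit, -0.25 with total counts and -0.22 with Gapdh scaling, so its relative direction did not change. Whether the responses of Hk2 and Slc2a1 differ was not tested. The RefSeq Hk2 window, 51.0% G and C, held 0 matches to ACGTG and 0 to the GC box.

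Gapdh, widely used as a reference gene for RNA measurements, was counted at a higher level in astrocytes, but the difference did not pass the test. It stood at 1002 and 887 CPM in astrocytes, 651 and 420 CPM in neurons, and 514 and 709 CPM in OPCs. Both astrocyte libraries were above all others, and neurons and OPCs overlapped. The log2 fold change was -0.82 ± 0.42 (SE) for neurons against astrocytes (edgeR adjusted p = 0.177; interval -1.80 to 0.16). For OPCs against astrocytes it was -0.63 ± 0.41 (SE; edgeR adjusted p = 0.334; interval -1.61 to 0.35). A level 3-fold lower in neurons than in astrocytes lies within the first interval, so the test does not show Gapdh to be constant across these cells. With total-count scaling the values were -0.33 and -0.21, in the same direction. Over all genes, the median log2 difference from astrocytes was 0.40 and 0.39 with that scaling, against -0.06 and -0.04 with TMM factors. Relative to the median of all genes, Gapdh stood at -0.76 in neurons and -0.59 in OPCs with TMM factors, and at -0.73 and -0.60 with total counts. RefSeq names 81 pseudogene loci after Gapdh, 30 after Ldha, 19 after Pkm and 1 after Ldhb, and 0 after Slc2a1 or Hk2. The sources used here do not say how reads that match several copies were assigned, so counts of genes with near-identical copies are uncertain. No gene of the table had counts identical to a member in all libraries (0 found). The RefSeq Gapdh window, 62.3% G and C, held 1 match to ACGTG, on the opposite strand at position -121 from the start. It held 0 matches to the GC box.

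Pkm, which makes the pyruvate that lactate dehydrogenase uses, was 3.04-fold lower in neurons than in astrocytes. It stood at 1047 and 892 CPM in astrocytes, 384 and 254 CPM in neurons, and 313 and 455 CPM in OPCs. The astrocyte libraries were the highest, with a gap of almost 2-fold to the nearest OPC library. The log2 fold change for neurons was -1.60 ± 0.42 (SE; edgeR adjusted p = 0.027; interval -2.60 to -0.61). For OPCs it was -1.34 ± 0.42 (SE; edgeR adjusted p = 0.056; interval -2.32 to -0.35), just short of the threshold. Both values lay near the threshold. The neuron difference was called under 8 of 15 alternatives that left Gapdh out of the scaling, and the OPC difference under 6 of 15, always with the same sign. The neuron difference was no longer called with total-count scaling (log2 fold change -1.11, or -1.51 relative to the median of all genes, and -1.54 in the main fit; adjusted p = 0.0713). Nor was it called with only the 4 libraries compared (adjusted p = 0.0611), or without astrocyte replicate 1 (0.147), astrocyte replicate 2 (0.0887), neuron replicate 2 (0.0694), OPC replicate 1 (0.0545) or OPC replicate 2 (0.0595). The log2 fold change itself moved little in most of these, at -1.54 with 4 libraries, -1.69 without astrocyte replicate 2, and -1.60 and -1.55 without OPC replicate 1 and 2. Omitting astrocyte replicate 1 gave -1.38, and omitting neuron replicate 2 gave -1.34. The OPC difference was called by DESeq2 (adjusted p = 0.00761), by limma-voom (0.0389), with the replicate block (0.0454), with only the 4 libraries compared (0.0292) and without neuron replicate 1 (0.0283) or 2 (0.0282). Between neurons and OPCs the log2 fold change of Pkm was -0.27 ± 0.41 (SE; edgeR adjusted p = 0.719). The counts do not separate the PKM1 and PKM2 splice forms.

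The Pkm window is shown beside that of Slc2a1 because both genes were lower in neurons by the main test. It lies at chr8:68953385-68953684 on the plus strand of GRCr8 and is 61.7% G and C.
Pkm: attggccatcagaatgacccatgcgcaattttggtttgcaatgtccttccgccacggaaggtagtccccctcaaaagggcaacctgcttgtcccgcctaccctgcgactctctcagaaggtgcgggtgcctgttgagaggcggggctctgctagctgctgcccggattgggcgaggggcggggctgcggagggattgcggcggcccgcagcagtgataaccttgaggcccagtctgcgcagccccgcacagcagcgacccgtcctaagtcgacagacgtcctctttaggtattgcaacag
It held 0 matches to ACGTG and 1 to GGGCGG, its first letter at position -75 from the start.

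**Figure D2:**
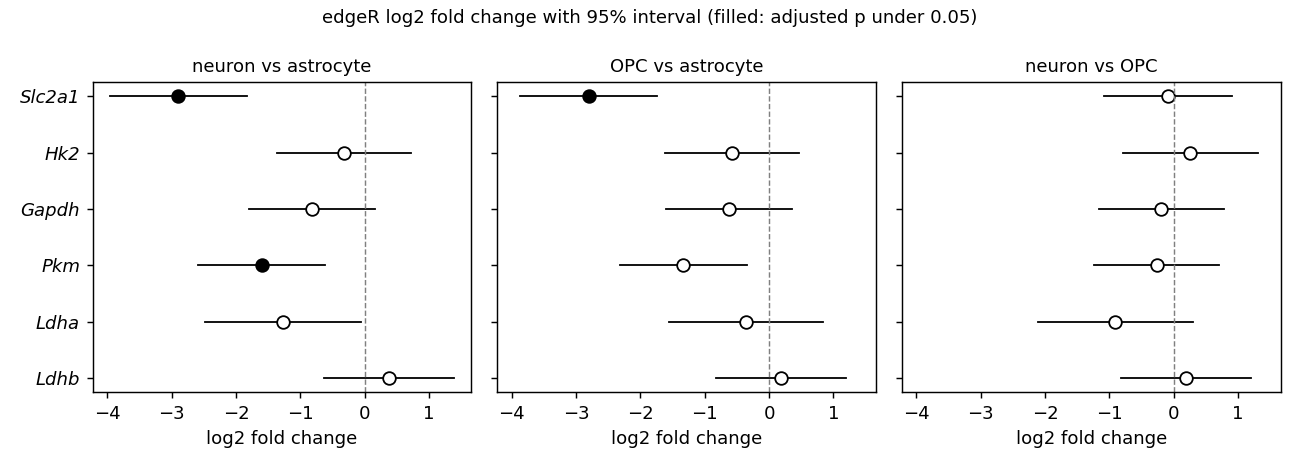
edgeR log2 fold change of the 6 genes in the 3 comparisons, with 95% intervals; filled points have an adjusted p under 0.05. Slc2a1 is filled in both comparisons with astrocytes and Pkm in that of neurons, and every interval for neurons against OPCs includes 0.

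Ldha, the subunit that predominates in tissues with high lactate output, had the largest SEs of the 6 genes in all 3 comparisons. It stood at 620 and 512 CPM in astrocytes, 311 and 160 CPM in neurons, and 287 and 594 CPM in OPCs. The neuron libraries lay below both astrocyte libraries, while OPC replicate 2 reached the astrocyte range and OPC replicate 1 lay in the neuron range. The log2 fold change for neurons against astrocytes was -1.27 ± 0.52 (SE; edgeR adjusted p = 0.106; interval -2.48 to -0.05). It passed the threshold under 1 of 15 alternatives, without neuron replicate 1 (log2 fold change -1.82, adjusted p = 0.0497), and was -0.87 without neuron replicate 2. For OPCs against astrocytes it was -0.36 ± 0.51 (SE; edgeR adjusted p = 0.674), and 0.07 without OPC replicate 1. It was 0.04 with total-count scaling and 0.22 with libraries scaled to Gapdh, but relative to the median of all genes it stood at -0.33 in the main fit, -0.35 with total counts and -0.39 with Gapdh scaling. For neurons against OPCs it was -0.90 ± 0.51 (SE; edgeR adjusted p = 0.292; interval -2.11 to 0.30).

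Ldhb was the gene of the set whose level was not lower in neurons or OPCs than in astrocytes by the main estimate. It stood at 120 and 136 CPM in astrocytes, 229 and 106 CPM in neurons, and 129 and 163 CPM in OPCs. The neuron replicates enclosed all the other libraries, a 2.17-fold spread. No comparison passed the edgeR test: the log2 fold change was 0.38 ± 0.43 (SE; adjusted p = 0.53; interval -0.63 to 1.39) for neurons against astrocytes. Without neuron replicate 1 it was -0.28. For OPCs against astrocytes it was 0.19 ± 0.43 (SE; edgeR adjusted p = 0.808), and for neurons against OPCs 0.19 ± 0.43 (SE; edgeR adjusted p = 0.805). The last became -0.47 when neuron replicate 1 was omitted.

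The ratio of Ldha to Ldhb counts was highest in astrocytes, intermediate in OPCs and lowest in neurons. Both counts come from the same library, so library scaling cancels. Because the counts are not per length, only differences of the ratio between cell types are compared, not its size. The ratio was 5.15 and 3.76 in the astrocyte replicates, 1.36 and 1.51 in the neuron replicates, and 2.21 and 3.65 in the OPC replicates. The 3 cell types did not overlap, although OPC replicate 2 came close to astrocyte replicate 2. As a share, Ldha made up 83.7% of the Ldha and Ldhb counts in astrocyte replicate 1 (95% Wilson interval 83.5 to 84.0) and 79.0% in replicate 2 (78.5 to 79.5). In neurons it made up 57.6% (57.1 to 58.0) and 60.2% (59.4 to 61.0), and in OPCs 68.9% (68.0 to 69.7) and 78.5% (78.1 to 78.9). The intervals cover counting error only, and the gaps between replicates were wider than that error in all 3 cell types. On the log2 scale the mean ratio was 2.14 ± 0.32 in astrocytes, 0.52 ± 0.11 in neurons and 1.51 ± 0.51 in OPCs (SD, n = 2 each). Neurons were thus 3.07-fold below astrocytes and 1.98-fold below OPCs, and OPCs 1.55-fold below astrocytes. The OPC to astrocyte difference, -0.63 on the log2 scale, was the smallest, beside SDs of 0.51 and 0.32. With n = 2 an SD restates the gap between replicates, so it adds little to the lack of overlap. Over all 15 distinct ways to divide the 6 libraries into 3 groups of 2, the exact permutation test gave p = 0.0667, the smallest it can give, so the design could not reach 0.05. For each pair of cell types the exact two-sided permutation p was 0.333, again the smallest that 2 against 2 allow. Leaving out 1 library in turn kept neurons lowest, with differences of -1.85 to -1.39 from astrocytes and -1.35 to -0.63 from OPCs. The OPC to astrocyte difference ran from -0.99 to -0.27, the smallest without OPC replicate 1. Each omission left 1 library in a group, so these are effect sizes only and do not test the order of the cell types.

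**Figure D3:**
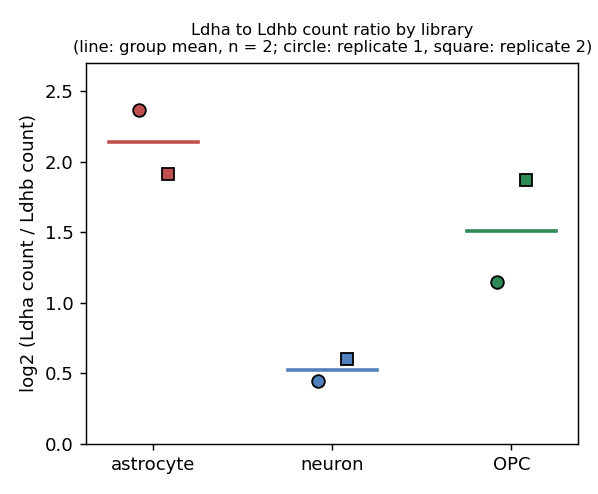
Log2 of the Ldha count over the Ldhb count in each library, by cell type; lines are means of 2 libraries, circles replicate 1 and squares replicate 2. Neurons lie lowest, at 0.44 and 0.60, and OPC replicate 2, at 1.87, lies next to astrocyte replicate 2, at 1.91.

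The windows of the subunit genes are shown side by side because the ratio of their counts was compared. Both are from RefSeq, build GRCr8: Ldha at chr1:106507842-106508141 on the plus strand, and Ldhb at chr4:177177359-177177658 on the minus strand. Capitals again mark ACGTG on either strand.
Ldha: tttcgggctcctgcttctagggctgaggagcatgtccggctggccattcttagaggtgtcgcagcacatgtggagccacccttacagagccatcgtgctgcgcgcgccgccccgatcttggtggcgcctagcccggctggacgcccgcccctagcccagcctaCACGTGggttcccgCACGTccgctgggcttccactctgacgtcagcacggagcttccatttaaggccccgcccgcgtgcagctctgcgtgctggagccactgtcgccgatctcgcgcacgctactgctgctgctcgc
Ldhb: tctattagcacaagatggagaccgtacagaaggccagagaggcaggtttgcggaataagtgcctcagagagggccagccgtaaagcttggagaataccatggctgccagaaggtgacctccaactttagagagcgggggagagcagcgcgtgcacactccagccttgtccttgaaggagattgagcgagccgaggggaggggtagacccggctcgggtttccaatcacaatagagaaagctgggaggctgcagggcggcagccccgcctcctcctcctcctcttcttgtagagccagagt
The Ldha window held 3 matches to ACGTG, of which 2 overlap on opposite strands in the palindrome CACGTG, an E-box bound by Myc family factors, its first letter at position -87 from the start. CACGTG was found in 6.418% of promoters of this length. Ldhb held 0 matches to ACGTG. The letters GCGTG, which were not searched for, occur in both windows, so these matches do not compare all forms of the HIF core. The GC box was found in 3 places in Ldha and 1 in Ldhb, and the share of G and C was 66.7% and 58.0%.

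Counts were also set against Gapdh in the same library, as a reference gene would be used, which again cancels library scaling. Because Gapdh itself had lower estimates in neurons and OPCs, this scale put the median of all genes 0.83 higher (log2) in neurons and 0.61 higher in OPCs than in astrocytes, and each value below carries that shift. Pkm was the steadiest gene on this scale. It had 1045 and 1005 counts per 1000 Gapdh counts in astrocytes, 590 and 604 in neurons, and 609 and 641 in OPCs. Replicates differed by far less than in CPM, and astrocytes stood 1.72-fold above neurons and 1.64-fold above OPCs. Neurons and OPCs did not overlap but were only 1.05-fold apart. Slc2a1 had 165 and 121 counts per 1000 Gapdh counts in astrocytes, 32.7 and 36.6 in neurons, and 25.8 and 36.2 in OPCs. On this scale astrocytes were 4.09-fold above neurons and 4.62-fold above OPCs, smaller gaps than in CPM. Relative to the median of all genes, its log2 difference was -2.87 and -2.81 on this scale, and -2.84 and -2.77 in the main fit. Ldhb had 120 and 154 counts per 1000 Gapdh counts in astrocytes, 352 and 251 in neurons, and 252 and 230 in OPCs. Both astrocyte libraries were below the other 4, by 2.19-fold on average for neurons and 1.77-fold for OPCs. In the edgeR fit on this scale its log2 differences of 1.14 and 0.82 came to 0.31 and 0.20 relative to the median of all genes, beside 0.44 and 0.22 in the main fit, where Ldhb was not called. Ldha had 619 and 578 in astrocytes, 477 and 380 in neurons, and 558 and 838 in OPCs, with neurons lowest. Hk2 had 26.6 and 19.4 in astrocytes, 25.3 and 44.7 in neurons, and 18.5 and 28.0 in OPCs, which overlapped. In an edgeR fit of all genes with libraries scaled to Gapdh, Slc2a1 alone of the 5 other genes was called lower in neurons (adjusted p = 0.00252) and in OPCs (0.00152). Pkm was not called there (adjusted p = 0.333 and 0.407), nor was Ldhb (0.115 and 0.299).

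**Figure D4:**
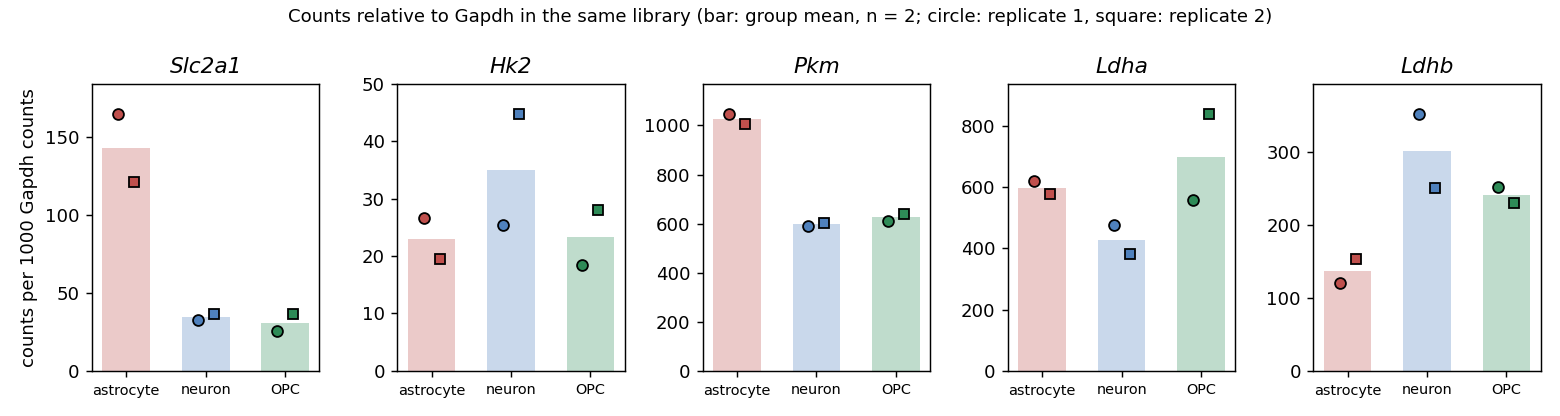
Counts per 1000 Gapdh counts of the same library for the 5 other genes, on linear axes from 0; bars are means of 2 libraries, circles replicate 1 and squares replicate 2. Astrocyte points are the highest for Slc2a1 and Pkm; those of Ldhb are the lowest, on a scale where the median of all genes is 0.83 (log2) higher in neurons and 0.61 higher in OPCs.

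Across the set, neurons against astrocytes gave 2 of 6 genes called lower (Slc2a1 and Pkm), where 15.9% of all 18206 genes tested were called lower. It gave 0 called higher by edgeR, against 14.5% of all genes. The median log2 fold change was -1.04 over the 6 genes and -0.06 over all genes. In 4 of the 6 both libraries of one cell type were above both of the other, and 68.8% of all genes met that criterion. OPCs against astrocytes gave 1 gene called lower (Slc2a1), against 14.9% of all genes. It gave 0 called higher, against 10.6%. The median log2 fold change was -0.60 over the 6 genes and -0.04 over all genes, and 3 of 6 were separated, against 65.5% of all genes. Neurons against OPCs gave 0 genes called by edgeR, against 12.4% of all genes. The median log2 fold change was -0.14 over the 6 genes, against 0.05 over all genes. No gene of the set had separated libraries in that comparison (0 of 6, against 57.1% of all genes). With only 6 genes these shares describe the set and are not a test of it. The separated shares in particular were no higher than the background.

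Within a cell type the 6 genes tended to be high or low together. In OPCs all 6 were higher in replicate 2, by 1.26-fold (Ldhb) to 2.09-fold (Hk2). In neurons 5 of 6 were higher in replicate 1, all but Hk2, by 1.38-fold (Slc2a1) to 2.17-fold (Ldhb). With total counts all 6 were. In astrocytes 5 of 6 were higher in replicate 1, all but Ldhb, by 1.13-fold (Gapdh) to 1.55-fold (Hk2). Among all genes tested, 49.9% were higher in replicate 1 in astrocytes, 52.1% in neurons and 49.0% in OPCs. Their median log2 gap between replicates was 0.42, 0.58 and 0.43. Gaps below it were those of Gapdh, Pkm, Ldha and Ldhb in astrocytes, Slc2a1 and Hk2 in neurons, and Ldhb in OPCs. Slc2a1, Gapdh, Pkm and Ldha were each higher in replicate 1 of the astrocytes and neurons and in replicate 2 of the OPCs. In each cell type that replicate was also the library with more counts. Totals for replicates 1 and 2 were 102861667 and 50267809 in astrocytes, 75601751 and 55520161 in neurons, and 22265917 and 45077708 in OPCs. OPC replicate 1 had the fewest counts of all, and the part of depth in this pattern was not tested.

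Genes with the most similar profile were sought among 4180 genes with a mean of at least 50 CPM, by Pearson correlation of log2 CPM over the 6 libraries. For Ldha it was ENSRNOG00000009373 (r = 0.998), at 868 and 671 CPM in astrocytes, 432 and 224 CPM in neurons, and 416 and 783 CPM in OPCs. It shared with Ldha the high astrocyte values and the wide gap between OPC replicates. For Ldhb it was ENSRNOG00000007316 (r = 0.973), at 48.1 and 52.1 CPM in astrocytes, 66.5 and 43.8 CPM in neurons, and 53.5 and 58.2 CPM in OPCs. Its range was far narrower than that of Ldhb. The correlations describe 6 libraries in 3 groups and were picked as the highest of many.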

How the data were processed

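The authors deposited raw counts per gene for 6 libraries, whole numbers that sum to a different total in each. Per the labels' protocols, RNA was isolated with a column kit and read on an Illumina HiSeq instrument. Aligner, counting tool, build, annotation and strandedness: not given in the sources used here. Each column name equals 1 sample's description, and 0 columns were left out. Names of the 6 genes come with their selection. RefSeq tables (GRCr8) paired 0 of the table's identifiers with a symbol, so planned lists of other pathway genes and cell type markers were not used. All 6 genes matched a RefSeq promoter by symbol.

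The test was edgeR's (version 4.0.16, R 4.3.3), after a filterByExpr filter (minimum count 10, minimum total 15) and TMM scaling. The robust quasi-likelihood fit took all 6 libraries, with cell type as the only factor (3 residual degrees of freedom). P-values were adjusted by Benjamini-Hochberg over 18206 genes and called under 0.05. SEs are the log2 fold change over the root of F, intervals from the moderated degrees of freedom. Log2 CPM used a prior count of 2. The steps were tested on simulated data. Alternatives were other scalings (RLE, upper quartile, total counts, Gapdh counts), DESeq2 1.42.0, limma-voom (limma 3.58.1), other low-count filters, a replicate block, pairwise fits and the omission of each library. The genes and lists were chosen with earlier results of these data known. The text names all 6 genes and, for Ldha and Ldhb, the most correlated other gene.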

Additional observations from a re-analysis of the deposited data

How the results depend on the processing

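Slc2a1 kept its direction and its call against astrocytes in all 16 alternatives, libraries scaled to Gapdh included. Its lowest and highest log2 fold changes were -3.15 and -2.05 for neurons, and -3.29 and -2.20 for OPCs. Pkm kept its direction against astrocytes but not its call. Its log2 fold changes for neurons ran from -1.93 without neuron replicate 1 to -0.78 with libraries scaled to Gapdh. Relative to the median of all genes the latter was -1.61. Of the values of single genes under alternatives, 253 kept direction and call, 8 lost and 7 gained a call, and 17 changed sign, none of them (0) called. Of these, 6 came from scalings that shift all genes, and relative to the median of all genes none of the 6 changed direction. With libraries scaled to Gapdh (medians 0.83 and 0.61 against astrocytes, 0.27 for neurons against OPCs), Hk2 was at 0.60 for neurons and 0.0158 for OPCs against astrocytes, Ldha at 0.22 for OPCs against astrocytes and Slc2a1 at 0.16 for neurons against OPCs. With total-count scaling (medians 0.40 and 0.39), Hk2 was at 0.15 for neurons and Ldha at 0.0365 for OPCs against astrocytes. Omitting each library once, with a lone library taken to vary as the other groups do, moved the log2 fold change over -0.58 to 0.14 for Hk2 and -0.28 to 0.84 for Ldhb in neurons against astrocytes, and -0.91 to 0.0696 for Ldha in OPCs against astrocytes. For neurons against OPCs it gave -0.49 to 0.45 for Slc2a1, -0.17 to 0.88 for Hk2, -0.54 to 0.0901 for Gapdh, -0.59 to 0.0116 for Pkm and -0.47 to 0.65 for Ldhb.

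Over all genes, leaving out 1 library gave 3306 to 5996 calls for neurons against astrocytes (5532 with all), 2182 to 5831 with OPCs in place of neurons (4649), and between neurons and OPCs 116 to 2759 (2260). DESeq2 called 4031 in the last. Total-count scaling put 66.2% of calls on the higher side in neurons and 58.6% in OPCs against astrocytes, against 47.7% and 41.6% with TMM. The cause was not tested. The replicate block gave 6467, 4831 and 2445 calls, and a ratio test p of 0.167 (exact, the smallest that it allows). It changed 1 call among the 6 genes, that of Pkm in OPCs. Deviations of same-numbered libraries correlated at 0.147, 0.292 and 0.162, and the labels do not say what a number marks.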
